A study of Mus musculus with 2 samples.

Results

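A total of 89 predicted snoRNA genes that carry only a provisional Gm symbol were examined in small RNA libraries of mouse fibroblasts. They are the rows of class snoRNA in the Ensembl noncoding RNA table whose transcript has a symbol starting with Gm, without the 5 rows that span 210 to 220 bp, the length of U3. The table holds 1596 rows, of which 199 are of class snoRNA and 94 of those carry a Gm symbol. GENCODE M21 lists 1333 Gm-named snoRNA genes outside U3 length on GRCm38, so 89 of 1333 had a row. A further 5 snoRNA rows had no symbol in the annotation and were not used here. Rows were left out as U3 by length alone, so a U3 copy of another length would remain among the members.

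The RNA came from primary fibroblasts (PMFs) grown from ear clippings of C57BL/6 mice and gave 2 small RNA libraries, 1 per condition. For the AF25-high condition the C/D box snoRNA AF357425 was raised with 3GA-AF25, a 3rd-generation antisense oligonucleotide at 200 nM. For the AF25-low condition it was inhibited with GM-AF25, a gapmer (an antisense oligonucleotide through which RNase H cuts the bound RNA), at 500 nM. Both transfections took 24 h and came after 48 h in KN-93, which blocks CaMK-II and holds cells in G1. AF357425, the oligonucleotide's chemistry and its dose differed together and cannot be told apart. Neither of the 2 libraries was of a control oligonucleotide, and reads of AF357425 itself were not analysed here. Of 10 microRNA genes fixed as fibroblast markers, 6 had a row (14110 reads for AF25-high and 27512 for AF25-low), and of 22 markers of other cell types 1 had a row, Mir200a, with 6 reads (AF25-high) and 0 reads (AF25-low).

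Small nucleolar RNAs guide enzymes to other RNAs by base pairing. C/D box snoRNAs carry a C box near the 5′ end and a D box near the 3′ end and direct 2′O-methylation. H/ACA box snoRNAs are longer, fold into hairpins separated by an H box, end shortly after an ACA triplet and direct pseudouridylation. Most act on ribosomal RNA in the nucleolus or on spliceosomal RNA. In mammals nearly all are cut out of introns, often of genes for ribosomal proteins, translation factors and nucleolar proteins, and several snoRNAs can share a host gene. The symbols of these 89 genes say nothing of the class, so the class was read from the sequence.

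The sequences shown first are those of 5 short members among the most abundant or the farthest apart between the libraries. They are GENCODE M21 transcripts on GRCm38, 5′ to 3′, with the C box TGATGA (searched in the first 15 nt) and the D box CTGA (searched in the last 20 nt) in capitals, both as exact matches on the strand of the transcript.
Gm24357 (chr9:15315522-15315595, plus strand): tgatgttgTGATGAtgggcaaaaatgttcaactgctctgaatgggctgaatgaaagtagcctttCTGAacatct
Gm24339 (chr9:15326464-15326539, minus strand): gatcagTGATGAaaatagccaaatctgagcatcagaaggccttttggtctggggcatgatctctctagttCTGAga
Gm23130 (chr10:23786470-23786543, minus strand): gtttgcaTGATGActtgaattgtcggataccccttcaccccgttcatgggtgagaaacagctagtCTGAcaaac
Gm23969 (chr2:26911261-26911334, plus strand): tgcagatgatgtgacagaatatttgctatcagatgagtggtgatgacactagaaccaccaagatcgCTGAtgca
Gm24494 (chr3:153911610-153911690, minus strand): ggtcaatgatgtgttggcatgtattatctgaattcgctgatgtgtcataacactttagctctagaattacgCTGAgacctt
All 5 are intronic, and lie in Taf1d, Cep295, Rps12, Rpl7a and Rabggtb in this order. All 5 end with a D box a few bases before the 3′ end. No exact C box was found in Gm23969 and Gm24494.

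The next 5 sequences are longer members with the ACA triplet in capitals. Gm25788 had the most reads of the H/ACA type, Gm24620 and Gm22154 are its close copies, and Gm26397 and Gm24451 are among the 6 lowest ratios.
Gm25788 (chr4:123291344-123291474, plus strand): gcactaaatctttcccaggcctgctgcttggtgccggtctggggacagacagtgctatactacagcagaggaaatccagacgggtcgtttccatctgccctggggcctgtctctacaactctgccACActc
Gm24620 (chr13:46767520-46767649, minus strand): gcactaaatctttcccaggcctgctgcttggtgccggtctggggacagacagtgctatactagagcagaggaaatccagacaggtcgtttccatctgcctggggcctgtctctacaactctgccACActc
Gm22154 (chr4:123293152-123293282, plus strand): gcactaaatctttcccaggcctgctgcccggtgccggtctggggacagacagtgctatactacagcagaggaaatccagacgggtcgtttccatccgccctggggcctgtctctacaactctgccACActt
Gm26397 (chr8:126944847-126944980, minus strand): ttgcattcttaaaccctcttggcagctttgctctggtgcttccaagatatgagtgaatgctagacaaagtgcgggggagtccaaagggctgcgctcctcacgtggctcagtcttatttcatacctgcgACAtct
Gm24451 (chr2:130276237-130276369, plus strand): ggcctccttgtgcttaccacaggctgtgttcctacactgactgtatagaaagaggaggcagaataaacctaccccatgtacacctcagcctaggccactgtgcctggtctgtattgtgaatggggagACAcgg
Gm25788 and Gm22154 lie in the same host gene, Pabpc4, and Gm24620 lies in Kif13a. Gm24620 was 97.7% identical to Gm25788 over 100% of its length, and Gm22154 was 97.7% identical to it over 99.2%.

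The 89 genes fell into separate groups by length, and the boxes were assigned partly by length. No length fell between 104 and 122 nt: 40 members were 65 to 104 nt long and 49 were 122 to 246 nt long. Of the 40 short members 38 had a D box, and of the 49 long members 42 had an ACA triplet followed by 1 to 3 bases at the 3′ end. Together 24 members had both C and D box, 16 the D box only, 40 both an H box (ANANNA in the middle of the transcript) and the ACA, and 2 the ACA only. The remaining 7 had neither. A C and D box pair was found in 27.0% of the members and in 20.2% of all 1558 snoRNA and scaRNA transcripts of GENCODE M21, and an H box with ACA in 44.9% and 35.8%. The group put under neither held 7.87% of the members against 33.1% of all such transcripts. The same search and length rule were applied to the named rows of the table. They put 64 of the 67 named C/D box rows under C and D box (40) or D box only (24). Of the 24 named H/ACA box rows, 23 fell under H and ACA box (21) or ACA only (2). A match describes letters in a window and is not a tested site. The exceptions among the long members were Gm25835 (144 nt, in Eif4a1) and Gm22486 (137 nt, in Ptcd3), which had both C and D box. RefSeq lists the gene at the position of Gm22486 as Snord94.

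The members summed to 9619 reads in AF25-high and 9832 reads in AF25-low cells, 13.4% and 12.4% of the reads of all snoRNA rows. As RPM, which relates reads to the whole library, this was 333 and 338. The ratio of AF25-high to AF25-low was 0.987, with an exact 95% interval of 0.959 to 1.01. The interval is Clopper-Pearson, computed on how the reads divide between the libraries, and covers counting error only. The conditions could not be tested with 1 library each, and the spread between cultures is unknown. The library totals behind the RPM were 28856715 and 29103700 reads, and other scalings move every ratio by the same factor. Ratios between 0.710 and 1.15, which include this sum, changed direction under at least 1 of the 4 other scalings.

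Reads were concentrated in a few members. Read lengths were not examined, so reads and RPM do not tell whole snoRNAs from fragments of them. Abundance here means reads. Gm24357 alone held 31.0% (AF25-high) and 26.7% (AF25-low) of member reads, and the 10 members with the most reads held 67.1% and 70.2%. Both libraries had reads for 78 members, 7 were at 0 in AF25-high and 4 at 0 in AF25-low. A count of 0 allows up to 3 reads, which is 0.104 (AF25-high) and 0.103 RPM (AF25-low). The most unequal of these were Gm22988 (0 in AF25-high, 9 in AF25-low), Gm22676 (0 and 7) and Gm25821 (7 and 0). Pairs of reads are given in this order throughout. Ratios are described for the 54 members that reached 20 reads in their higher library. The other 35 had at most 17 reads in either library.

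**Figure D1:**
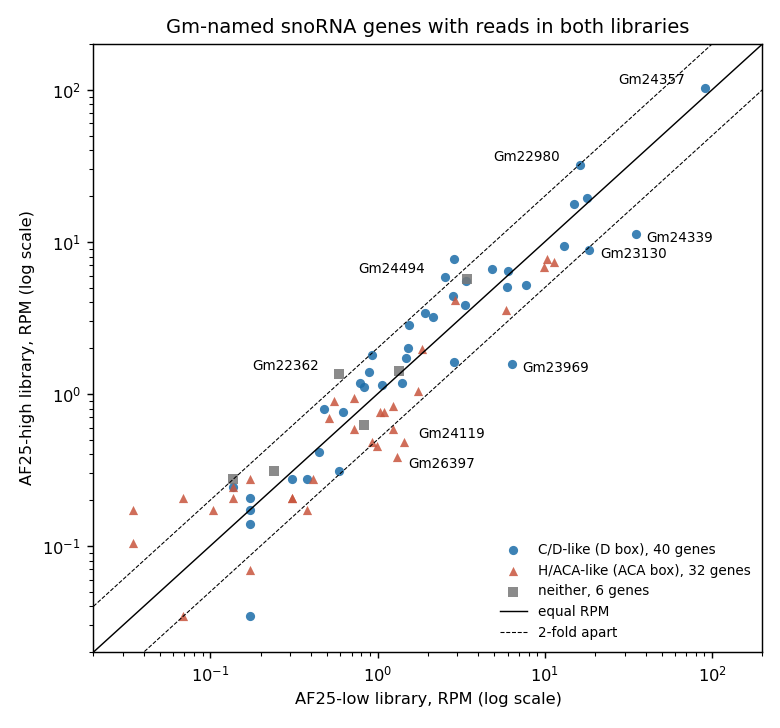
RPM of the Gm-named snoRNA genes in AF25-low (x axis, log scale) and AF25-high cells (y axis, log scale), 1 point per gene with reads in both libraries (78 of 89). Colour and shape give the box found in the sequence, the solid line marks equal RPM and the dashed lines a 2-fold difference. Gm24357 stands highest in both libraries, and Gm23969, Gm24339 and Gm23130 are among the points below the lower dashed line.

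Among the 54 members, 31 were higher and 23 lower in AF25-high cells. Of the 436 rows of the whole table with as many reads, 229 were higher and 207 lower. The median log2 ratio of the members was 0.11 (quartiles -0.56 and 0.57), beside 0.06 over these 436 rows and -0.13 over the 56 named C/D box rows. At least 2-fold higher in AF25-high were 3 members (5.56%), compared with 16.1% of the 436 rows. At least 2-fold lower were 7 members (13.0%), compared with 12.2% of rows. The interval lay above 1 for 15 members (27.8%; 29.1% of rows) and below 1 for 15 members (27.8%; 26.6% of rows). The shares of members were near those of the table except for the smaller share at least 2-fold higher. That share was also small in the snoRNA rows other than the members (7.32% of 82 rows) and in the named C/D box rows (7.14%). The split into higher and lower members depended on the scaling. It was 24 higher and 30 lower when scaled by the median of ratios and 26 and 28 by TMM. Scaled to the table total it was 38 and 16, with 16 members at least 2-fold higher and 4 at least 2-fold lower, beside 134 and 21 of the 436 rows.

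**Figure D2:**
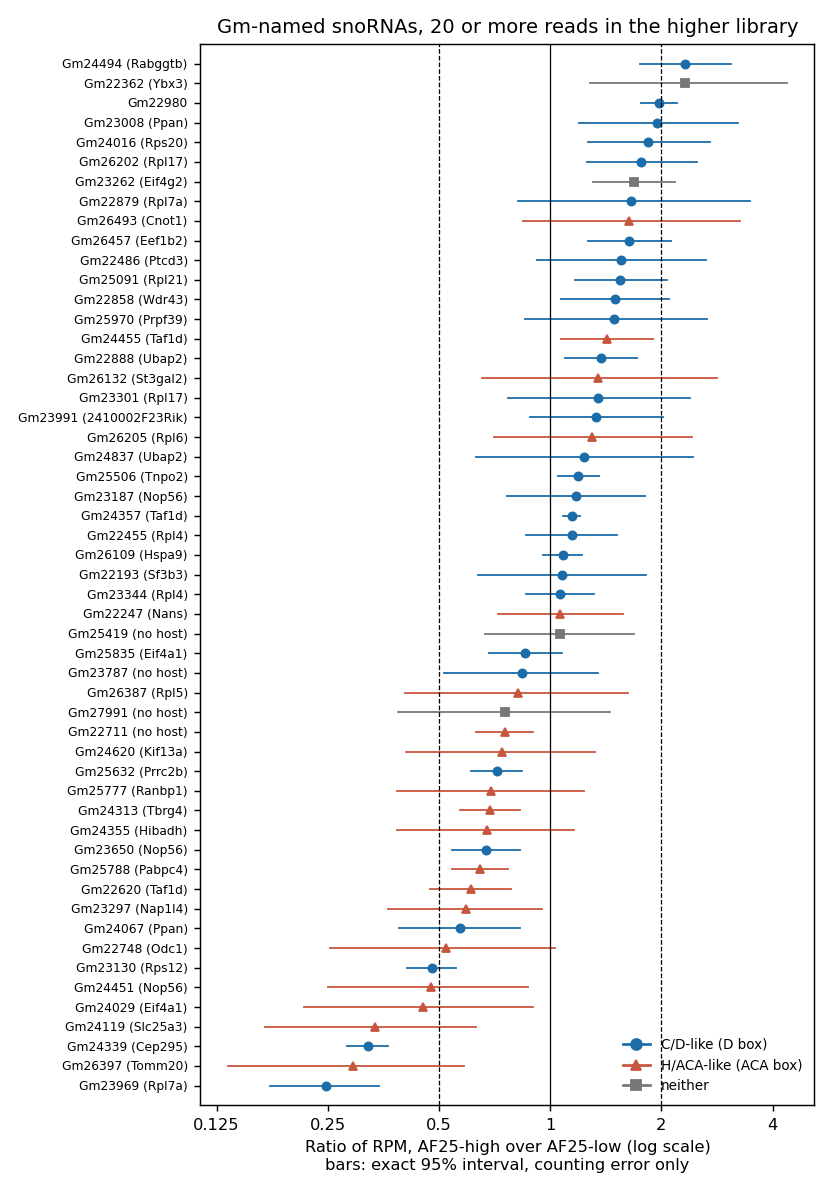
Ratio of RPM in AF25-high over AF25-low cells (log scale) for 53 of the 54 members with 20 or more reads in their higher library, with exact 95% intervals for counting error only, host gene in brackets and colour and shape by box. Ratios run from 0.247 (Gm23969) to 2.32 (Gm24494), and 14 of the 19 H/ACA-like members lie left of the solid line at 1 (11 when scaled to the table total).

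The members of C/D type and of H/ACA type differed in their median. The 40 members put in the C/D type (24 of them with the C box) had 8091 (AF25-high) and 7928 reads (AF25-low), a ratio of 1.03 (0.998 to 1.06). Of the 31 with 20 reads, 23 were higher and 8 lower in AF25-high, and their median log2 ratio was 0.29. The 42 members put in the H/ACA type had 1248 and 1713 reads, a ratio of 0.735 (0.683 to 0.791), or 0.781 without the 3 with the most reads. Of the 19 with 20 reads, 5 were higher and 14 lower, and their median log2 ratio was -0.54. Scaled to the table total the sum of these 42 turned to 1.03 (0.961 to 1.11), with 8 higher and 11 lower. Scaled by the median of ratios or by TMM the sum of the 40 turned to 0.893 and 0.911, with 18 and 20 members still higher. The difference between these medians, 0.83 on the log2 scale, is the same under every scaling. The named snoRNAs of the table did not show it: the median was -0.13 for 56 named C/D box rows and -0.11 for 13 named H/ACA box rows, a difference of -0.03. The median GC content was 42.3% in the members of C/D type and 49.8% in those of H/ACA type. Over the 54 members the log2 ratio had a Spearman rho of -0.35 with GC content (Pearson r -0.27), of -0.24 with length (r -0.28) and of 0.01 with reads (r 0.00140), all in the same pair of libraries. The part of length and GC content in the difference was not tested.

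Among the C/D-like members, Gm24357 was the most abundant. It lies within Taf1d, which encodes a subunit of the factor that brings RNA polymerase I to ribosomal DNA, and had 2981 reads (103 RPM) in AF25-high and 2628 reads (90.3 RPM) in AF25-low. Per 100 nt of transcript this was 140 and 122 RPM, the highest value of any member in either library. The ratio was 1.14 (1.09 to 1.21). It was 0.993 when scaled by the median of ratios.

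Several C/D-like members were higher in AF25-high cells. Gm22980 had 928 reads (32.2 RPM) in AF25-high and 474 reads (16.3 RPM) in AF25-low, a ratio of 1.97 (1.77 to 2.21). Gm24494 in Rabggtb, which encodes a subunit of the enzyme that attaches lipid anchors to Rab proteins, had 170 reads (5.89 RPM) and 74 reads (2.54 RPM), a ratio of 2.32 (1.75 to 3.09). Gm24016 in Rps20, a gene of the small ribosomal subunit, had 82 and 45 reads, a ratio of 1.84 (1.26 to 2.71). Gm23008 in Ppan, which encodes a nucleolar protein of ribosome assembly, had 52 and 27 reads, a ratio of 1.94 (1.20 to 3.22). These members of C/D type were higher in AF25-high by more than counting error.

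Other C/D-like members were lower in AF25-high. Gm24339 lies in Cep295, which encodes a centrosomal protein, and had 323 reads (11.2 RPM) in AF25-high and 1014 reads (34.8 RPM) in AF25-low, a ratio of 0.321 (0.283 to 0.364). Gm23130 lies in Rps12 and had 253 reads (8.77 RPM) and 534 reads (18.3 RPM), a ratio of 0.478 (0.410 to 0.556). Gm23969 lies in Rpl7a, a gene of the large ribosomal subunit, and had 45 reads (1.56 RPM) and 184 reads (6.32 RPM). Its ratio, 0.247 (0.174 to 0.343), was the lowest of the 54 members. Gm24339, the second most abundant member in AF25-low, ranked below Gm22980, Gm26109 and Gm25506 in AF25-high. The remaining abundant members of this type were closer to 1. Gm26109 in Hspa9, which encodes a mitochondrial chaperone, had 557 and 520 reads, a ratio of 1.08 (0.957 to 1.22), which was 0.937 when scaled by the median of ratios and 0.956 by TMM. Gm25506 in Tnpo2, which encodes a nuclear import receptor, had 515 and 436 reads, a ratio of 1.19 (1.05 to 1.36).

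Gm25632 lies in Prrc2b and had 269 reads (9.32 RPM) in AF25-high and 378 reads (13.0 RPM) in AF25-low, a ratio of 0.718 (0.612 to 0.841). Every 18-nt window of its sequence also occurs in another snoRNA transcript, and 2 other annotated genes are near copies of it. Its reads cannot be told apart from reads of those copies. Scaled to the table total its ratio was 1.01.

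The H/ACA-like members had fewer reads. Gm25788 lies in Pabpc4, which encodes a poly(A) binding protein, and had 213 reads (7.38 RPM) in AF25-high and 332 reads (11.4 RPM) in AF25-low, a ratio of 0.647 (0.542 to 0.771). Gm22711 has no host gene on its strand and had 224 and 300 reads, a ratio of 0.753 (0.631 to 0.898), which was 1.06 when scaled to the table total. Gm24313 lies in Tbrg4, which encodes a mitochondrial RNA-binding protein, and had 196 and 287 reads, a ratio of 0.689 (0.571 to 0.829). The 3 most abundant H/ACA-like members were therefore each lower in AF25-high at this scaling. Scaled to the table total the intervals of all 3 held 1. Per 100 nt they lay between 5.11 and 5.75 RPM in AF25-high and between 7.41 and 8.71 RPM in AF25-low.

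The H/ACA-like members with the lowest ratios had few reads. Gm26397 in Tomm20, which encodes a receptor of the mitochondrial protein import machinery, had 11 (AF25-high) and 38 reads (AF25-low), a ratio of 0.292 (0.135 to 0.583). Gm24119 in Slc25a3, which encodes the mitochondrial phosphate carrier, had 14 and 42 reads, a ratio of 0.336 (0.170 to 0.628), and is with 246 nt the longest member. Gm24029 in Eif4a1, which encodes an RNA helicase of translation initiation, had 13 and 29 reads, a ratio of 0.452 (0.216 to 0.897). Gm24451 in Nop56, which encodes a core protein of C/D box snoRNPs, had 17 and 36 reads, a ratio of 0.476 (0.251 to 0.870). All 4 intervals lay below 1 and were wide. Scaled to the table total, those of Gm24029 and Gm24451 held 1. By RPM the interval lay below 1 for 9 of 19 H/ACA-like members (47.4%; 26.6% of the 436 rows). With the table total it lay below 1 for 2 of the 19, beside 47 of the 436 rows.

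Of the long members, 1 reached 2-fold higher in AF25-high at this scaling. Gm22362 in Ybx3, which encodes a cold-shock domain protein, had 39 reads (1.35 RPM) in AF25-high and 17 reads (0.584 RPM) in AF25-low, a ratio of 2.31 (1.28 to 4.36). Neither box pair was found in its 134 nt, which leaves its type open. The search also put 1 of the 24 named H/ACA box rows under neither. Members were not typed by their closest relative. Gm23262 in Eif4g2 (168 nt, also with neither) had 165 and 99 reads, a ratio of 1.68 (1.30 to 2.18).

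Most members lie inside other genes. A host, a gene on the same strand whose span holds the member, was found for 81 of 89: 79 lie in 57 protein-coding genes, 2 in noncoding genes, and 8 had none. Of the 79, 76 lie wholly in introns of the protein-coding transcripts and 3 overlap an exon (Gm23187 in Nop56, Gm23991 and Gm26247 in 2410002F23Rik). The 7 members in translation factor genes had a ratio of 1.19 (1.05 to 1.36). Of the 4 with 20 reads, Gm23262 and Gm26457 were higher and the other 2 lower. The sum was 1.04 (0.908 to 1.18) when scaled by the median of ratios and 1.06 (0.926 to 1.21) by TMM, and both intervals hold 1. The 9 in genes for the nucleolar proteins Nop56, Nop58, Ncl, Ppan and Wdr43 had 0.863 (0.756 to 0.985), and the 8 without a host 0.810 (0.699 to 0.939). Scaled to the table total the last 2 sums turned to 1.21 and 1.14.

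Members of the same host gene differed in ratio in some hosts. Of 9 hosts with 2 or more members at 20 reads, 3 held members whose intervals do not overlap (Taf1d, Ppan and Rpl7a). Pairs from different hosts were not compared. Over the 436 rows the interval lay above 1 for 29.1% and below 1 for 26.6%. Of the same 9 hosts, 2 held members with intervals on both sides of 1. In Taf1d, Gm24357 and the H/ACA-like Gm24455 (120 and 85 reads, ratio 1.42, 1.07 to 1.90) were higher, and Gm22620 (103 and 170 reads, ratio 0.611, 0.474 to 0.785) was lower. In Ppan, Gm23008 was higher and Gm24067 (47 and 83 reads, ratio 0.571, 0.391 to 0.826) was lower. In Rpl7a, Gm22879 had 23 and 14 reads, a ratio of 1.66 (0.817 to 3.48) whose interval does not overlap that of Gm23969. By contrast, in Rpl4 the ratios of Gm23344 (1.07) and Gm22455 (1.14) differed least.

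With named snoRNAs included, 17 hosts had 2 or more snoRNAs at 20 reads in the plot of host genes. In 7 of them at least 1 pair of intervals did not overlap. How often this holds for snoRNAs of different hosts was not computed here either. For named snoRNAs alone this was 1 of 5 plotted hosts. In Nop56, Snord57 had 2355 and 1194 reads, a ratio of 1.99 (1.86 to 2.13), while Snord110 had 231 and 653 reads, a ratio of 0.357 (0.306 to 0.415). The 3 members there lay in between, Gm23187 at 1.17 (0.764 to 1.81), Gm23650 at 0.669 (0.541 to 0.827) and Gm24451 at 0.476. In Rps12, Snord100 had 55 and 42 reads, a ratio of 1.32 (0.868 to 2.02), against 0.478 for Gm23130. In Rabggtb, Snord45c had 36 and 40 reads, a ratio of 0.908 (0.562 to 1.46), against 2.32 for Gm24494. In Eef1b2, Gm26457 had 159 and 98 reads, a ratio of 1.64 (1.26 to 2.13), and Snora41 had 698 and 858 reads, a ratio of 0.820 (0.741 to 0.908). In the other hosts plotted the intervals overlapped, as for Snord2 (0.913) and Snora81 (1.23) in Eif4a2, Gm26387 (0.816) and Snord21 (1.15) in Rpl5, and Snord95 (0.551) and Snord96a (0.852) in Rack1. A ratio within 1 host is the same comparison under every scaling.

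**Figure D3:**
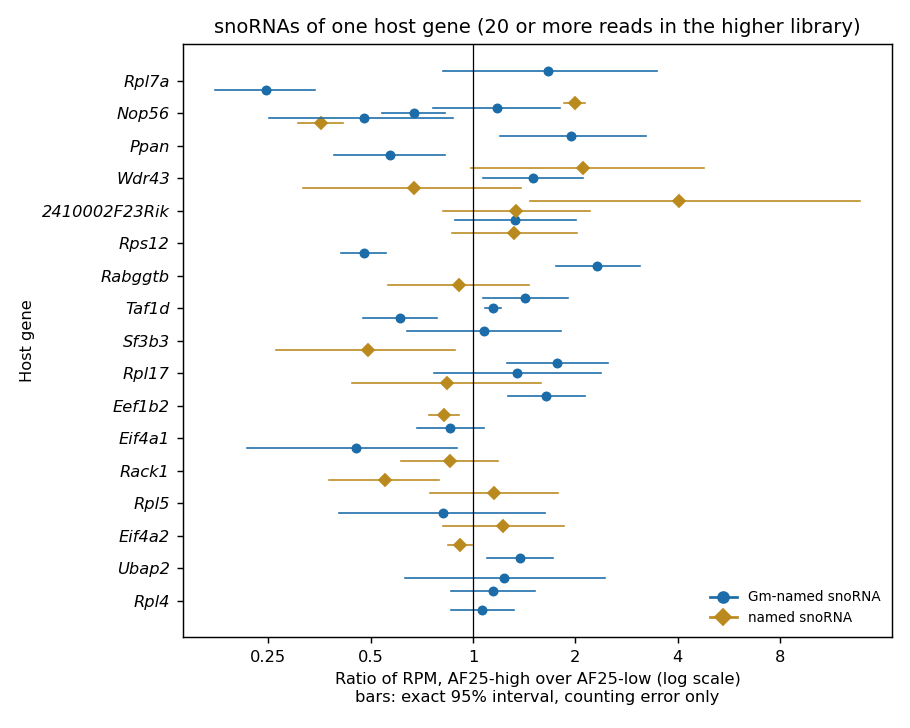
Ratio of RPM in AF25-high over AF25-low cells (log scale) for snoRNAs that share a host gene, 1 point per snoRNA that reached 20 reads in either library, with exact 95% intervals for counting error only. Gm-named members are circles and named snoRNAs diamonds. Hosts are ordered by the highest over the lowest ratio, from 1.07 in Rpl4 to 6.72 in Rpl7a.

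Shared sequence limits what can be said of the longer members. A near copy (at least 90% identical over at least 90% of the length) was found among annotated snoRNAs for 29 members, 27 of them long and 2 short. These 29 had a median of 15 reads over both libraries and a summed ratio of 0.707 (0.643 to 0.778), which was 0.995 when scaled to the table total, and the 60 without had a median of 77 reads and a ratio of 1.02 (0.990 to 1.05). In the authors' pipeline a read that fits several loci counts for the most highly expressed of them, so reads of close copies cannot be told apart. In the set shown above, Gm25788 had 213 and 332 reads, Gm24620 had 22 and 30, and Gm22154 had 0 and 1. The intervals of Gm25788 and Gm24620 (0.740, 0.407 to 1.33) overlapped. Gm24451 had 17 and 36 reads and its copy Gm22298, 95.4% identical, had 1 and 0. The H/ACA-like members without a near copy had nearly the same median log2 ratio (-0.53, 10 members with 20 reads) as those with one (-0.56, 9 members).

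A near copy with a proper name was found for 9 members, and none of those had more than 20 reads in a library (Gm26132, close to Snora57, had 20 and 15). Gm23723 had 1 and 0 reads beside 698 and 858 reads of Snora41, to which it was 97.7% identical. Gm24698 had 1 and 0 reads beside 344 and 414 reads of Snora3. Gm25296, in Rack1 like Snord95, had 8 and 9 reads beside 47 and 86 reads of Snord95. RefSeq lists 2 of the 88 members it has at the same position as pseudogenes, Gm25419 with 41 and 39 reads and Gm23455 with 0 and 1. Gm25419 shared 40.2% of its 18-nt windows with other transcripts, so part of its reads may not be its own.

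At the other end, 31 members shared no 18-nt window with another snoRNA or another transcript of the table. They had a median of 208 reads and a summed ratio of 1.02 (0.984 to 1.05), and 30 of them reached 20 reads. Among these the interval was above 1 for 12 (40.0%; 29.1% of the 436 rows) and below 1 for 9 (30.0%; 26.6% of rows). An interval leaves 1 more easily with more reads, and the 2 sets were not matched for reads. The 58 members with a shared window had a median of 16.5 reads. Gm24357, Gm22980, Gm24339, Gm23130 and Gm23969 are among these 31, so no annotated copy shares 18 nt with them.

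**Figure D4:**
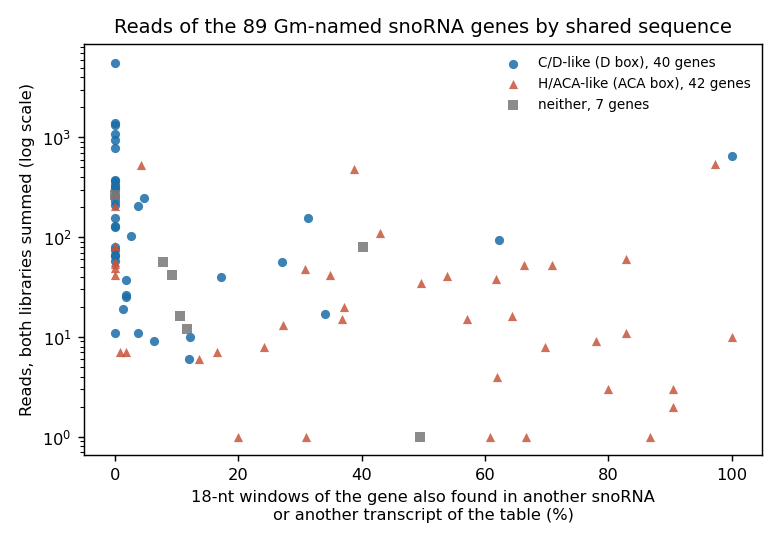
Reads of each of the 89 members summed over both libraries (y axis, log scale) against the percent of its 18-nt windows found in another snoRNA or another transcript of the table (x axis), with colour and shape by box. Many members of C/D type lie at 0%, and Gm25632 of this type lies at 100%. Members of H/ACA type spread from 0% to 100%, with a median of 15.5 reads against 128.5 for the C/D type.

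Only Gm23787 lies between Dlk1 and Dio3 on chromosome 12, the imprinted region that also holds AF357425. It had 34 reads (1.18 RPM) in AF25-high and 41 reads (1.41 RPM) in AF25-low, a ratio of 0.836 (0.515 to 1.35). The interval holds 1, and a difference was not detectable at this depth.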

How the data were processed

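The authors isolated RNA with TRIzol, sequenced small RNA on the DNBseq platform and ran sRNAbench with Bowtie on GRCm38 (versions: not given in the sources used here). Reads were counted on the sense strand, and a read that fits several loci counts for the most highly expressed one. The deposited signal values of the Ensembl noncoding RNA table and the tRNA table are counts that the authors divided by a size factor per library. The authors' fold changes and p-values were not used, and neither was the RNAcentral table.

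The smallest positive value of a column was taken as 1 read, and 100% of values were whole multiples of it (tolerance 1e-06). RPM used library totals from 38 tRNA anticodons (tRNA reads over the RPM the study lists), with 12 (AF25-high) and 13 (AF25-low) of them within 1% of the median. The Ensembl table held 375931 (AF25-high) and 533803 reads (AF25-low). Names, positions and sequences came from GENCODE M21 (1571 of 1596 identifiers matched), and RefSeq genes on GRCm38 were matched by position. Ratios carry Clopper-Pearson 95% intervals, and median log2 ratios had 0.5 reads added. Reads are not independent molecules, so intervals and floors cover counting error only.

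Members named are the 10 with the most reads, the 6 highest and 6 lowest ratios at a minimum of 20 reads in either library, and any at 0 beside at least 10 reads (none). 1 host gene and 1 member with a high ratio are not reported here. Others were named after their values were seen, for shared hosts, copies or position. The members and lists were chosen with earlier results of these data known. Near copies came from BLAST 2.17.0 (word size 7). Calculations used Python 3.11.15, scipy 1.17.1, pandas 2.3.3, numpy 2.4.6 and matplotlib 3.10.9. TMM came from edgeR 4.0.16 in R 4.3.3 and was used only for scaling. The calculation was tested on simulated data. Alternatives were other scalings, read minimums, added reads and sets of members. Leaving out the 2 most abundant members with a near copy or the 3 most abundant with an ACA was chosen after seeing the data.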

Additional observations from a re-analysis of the deposited data

How the results depend on the processing

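Scaling moved every log2 ratio by -0.20 (median of ratios), -0.18 (TMM), 0.49 (table total) or 0.01 (microRNA RPM). The summed ratio was 0.856, 0.874 and 1.39 under the first 3, and 0.951 without the 3 members with the most reads. The median log2 ratio turned to -0.10 (median of ratios) and -0.069 (TMM) and was 0.60 with the table total. The count at least 2-fold higher was 16 with the table total and 7 with no minimum of reads. The count at least 2-fold lower was 4 with the table total, 3 with a minimum of 50 reads and 12 with no minimum. Direction changed for Gm24357 (0.993, median of ratios), Gm26109 (0.937, median of ratios, and 0.956, TMM), Gm25632 (1.01) and Gm22711 (1.06, both with the table total). These changes follow from the common factor or from the members counted. Leaving out members close to a named snoRNA gave a summed ratio of 0.986. No paired analysis was possible because each condition has 1 library, and no replicate could be left out for the same reason.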
